A study of Mus musculus with 2 samples.

Results

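The genes described here are 10 members of the interleukin-1 system: the cytokines *Il1a*, *Il1b*, *Il18* and *Il33*, the antagonist *Il1rn*, the receptors *Il1r1*, *Il1r2*, *Il1rl1* and *Il18r1*, and the inflammasome sensor *Nlrp3*. They were taken by symbol, and all 10 were present among the 50768 genes of both count matrices. Single-cell RNA sequencing compared 1 library from NOD/ShiLtJ mice, an inbred strain that develops diabetes and a Sjögren's-like disease, with 1 library from outbred CD1 mice as controls. The mice were untreated 20-week-old females, and each library pooled submandibular glands with the adjacent sublingual glands of several mice of a strain. Before loading, EpCAM-positive and Ter119-positive cells and dead cells were taken out, so the libraries hold what these steps left, and their epithelial and red cell content says little about the gland. With 1 library for each strain, no test between the strains was possible, and every interval below covers counting error alone. Strain, pool, dissociation and library cannot be told apart.

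Interleukin-1 alpha and interleukin-1 beta bind the same receptor, interleukin-1 receptor 1, which signals to NF-kB through the adaptor MyD88. The product of *Il1rn* occupies that receptor without activating it, and interleukin-1 receptor 2 is a decoy. Interleukin-1 beta and interleukin-18 are made as precursors that caspase-1 cuts once a sensor such as NLRP3 has assembled an inflammasome, whereas interleukin-33 is a nuclear protein of stromal and epithelial cells that acts when released from damaged cells on ST2, the product of *Il1rl1*. Transcript levels therefore show which cells carry the message and not how much active cytokine was released.

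Of the 10 genes, 6 lie in 2 groups on the genome. In the RefSeq annotation of GRCm38.p6, the start sites of *Il1a* and *Il1b* are 61.2 kb apart on chromosome 2, and those of *Il1r2*, *Il1r1*, *Il1rl1* and *Il18r1* lie within 379 kb of chromosome 1. *Il1rn* is also on chromosome 2 but 105034 kb from *Il1b*, and *Il18*, *Il33* and *Nlrp3* lie on chromosomes 9, 19 and 11. The submitters' processing notes name GRCm39, so these positions serve as annotation only. For 3 of the genes, windows of 250 bases just before a start site are shown because the results below turn on these genes. *Il1a* and *Il1b* differed in opposite directions in macrophages. *Il1rl1* had its highest level in a small lymphoid class of both libraries, though most of its transcripts lay in other classes. Capitals mark matches, on either strand, to TATAAA, to the AP-1 motif TGANTCA, to the GATA motif GATAA or to an NF-kB consensus.
Il1a (chr2:129309973-129310222, minus strand): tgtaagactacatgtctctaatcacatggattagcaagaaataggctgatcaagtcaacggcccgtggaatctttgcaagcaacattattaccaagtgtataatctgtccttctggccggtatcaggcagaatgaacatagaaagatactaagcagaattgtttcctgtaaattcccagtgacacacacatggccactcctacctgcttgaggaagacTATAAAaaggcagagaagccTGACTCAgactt
Il1b (chr2:129371140-129371389, minus strand): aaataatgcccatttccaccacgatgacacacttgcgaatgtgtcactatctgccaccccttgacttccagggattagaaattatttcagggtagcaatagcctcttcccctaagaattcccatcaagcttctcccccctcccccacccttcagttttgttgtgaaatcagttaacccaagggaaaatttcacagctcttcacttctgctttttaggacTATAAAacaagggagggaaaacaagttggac
Il1rl1 (chr1:40429320-40429569, plus strand): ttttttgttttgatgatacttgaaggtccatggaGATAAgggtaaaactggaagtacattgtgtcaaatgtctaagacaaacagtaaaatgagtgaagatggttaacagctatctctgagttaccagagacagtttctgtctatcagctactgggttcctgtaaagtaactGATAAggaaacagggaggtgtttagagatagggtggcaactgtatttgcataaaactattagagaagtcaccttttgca
In *Il1a* the TATAAA match began 32 bases before the start site and an AP-1 match 12 bases before it, and in *Il1b* the TATAAA match began 31 bases before the start site. The *Il1rl1* window, before the first of its 2 listed start sites, held 2 GATAA matches, 216 and 79 bases before the start. Of 32851 such windows in the annotation, 12.4% held TATAAA, 6.75% the AP-1 motif, 22.6% GATAA and 7.25% the NF-kB consensus. A match describes the letters and does not show that a factor binds there. The windows are reference sequence and were not read from NOD or CD1 DNA, so they say nothing on a difference between the strains.

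After removal of barcodes with under 500 unique molecular identifiers (UMIs, which count captured RNA molecules) or under 300 genes, 6500 NOD and 7014 CD1 barcodes remained, with 43439635 and 49420810 UMIs and medians of 5720 and 6495 UMIs. Each barcode was placed by marker genes in the lineage whose score led the next by at least 1.5 times, which placed 5601 NOD barcodes (86.2%) and 6513 CD1 barcodes (92.9%). A barcode so placed is called "-like", and 306 NOD and 246 CD1 placed barcodes led by under 2 times. The placed barcodes included 2131 T-like in NOD and 111 in CD1, 527 and 339 NK or ILC1-like (natural killer or type 1 innate lymphoid), 674 and 2903 macrophage-like, and 1090 and 2935 endothelial-like. The samples are labelled as stromal enriched, yet only 63 NOD and 19 CD1 barcodes were fibroblast-like. All 9 fibroblast markers were raised in them, but the same markers placed them, so this is no separate support for the class. A total of 18 kept barcodes occurred in both libraries. Levels are UMIs of a gene per 1000000 UMIs of the class (CPM). The level in empty droplets, those of 10 to 100 UMIs, is given as the make-up of free RNA. Free RNA is only a part of the UMIs of a barcode, so a class level below it does not mark those UMIs as free RNA.

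**Figure D1:**
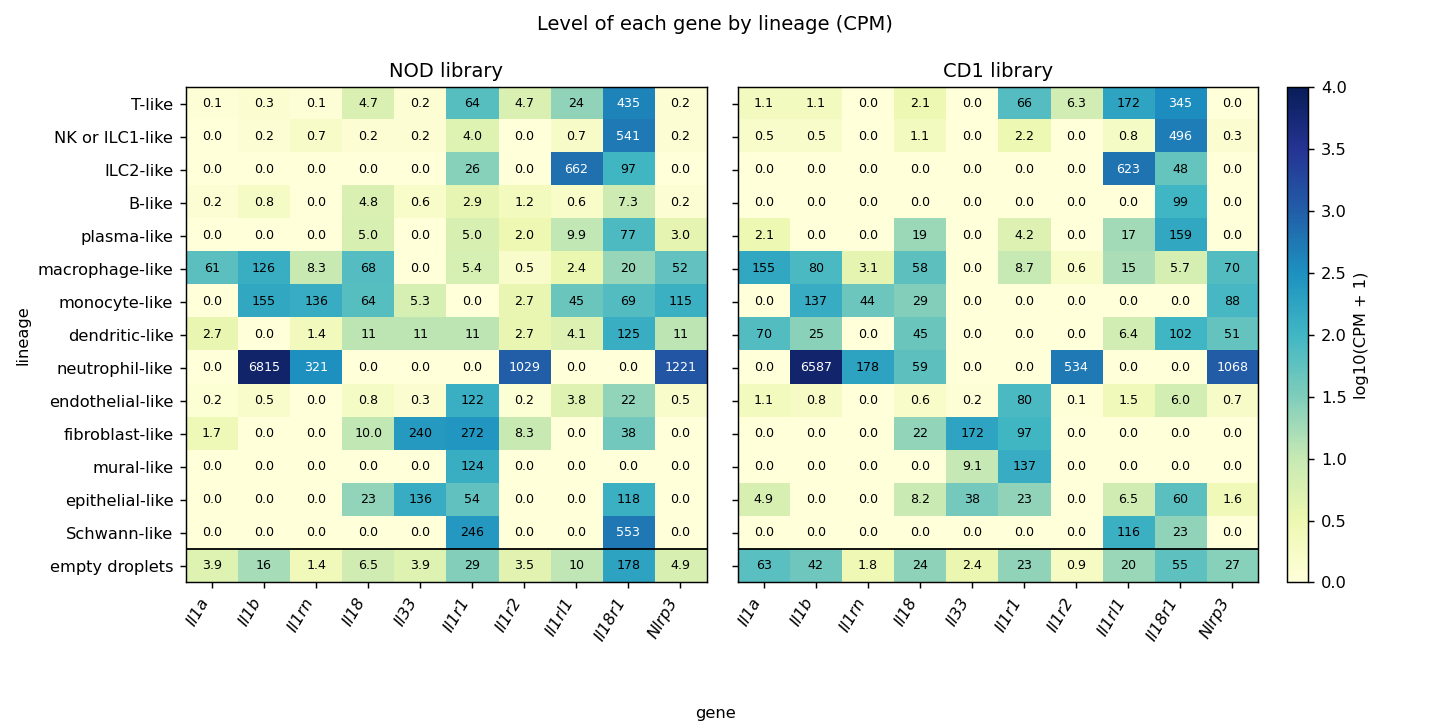
Level of each of the 10 genes in each lineage of the NOD library (left) and the CD1 library (right), printed as CPM and coloured by log10(CPM + 1), with empty droplets in the bottom row. Neutrophil-like, macrophage-like and monocyte-like rows hold *Il1b*, *Il1rn* and *Nlrp3* in both libraries, and *Il1rl1* is highest in the ILC2-like row.

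The NOD library held 258 UMIs of *Il1a* and the CD1 library 3276. Nearly all of those in placed barcodes were macrophage-like, 97.0% in NOD and 98.7% in CD1. The level in macrophage-like barcodes was 60.8 CPM in NOD (226 UMIs, 95% interval 53.2 to 69.3) and 155 CPM in CD1 (2990 UMIs, 150 to 161), so *Il1a* was 2.55-fold higher in CD1 (log2 ratio NOD over CD1 -1.35, -1.55 to -1.16). Empty droplets held 3.88 CPM in NOD and 62.9 CPM in CD1, so that free *Il1a* RNA was also more abundant in the CD1 library. The gene was nearly absent from the other large classes, with 1.13 CPM in CD1 endothelial-like and 0.207 CPM in NOD B-like barcodes, and the CD1 dendritic-like value of 70.1 CPM rested on 11 UMIs in 3 of 14 barcodes. No *Il1a* UMI was found in the monocyte-like or neutrophil-like barcodes of either library.

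*Il1b*, the neighbour of *Il1a*, went the other way in macrophage-like barcodes. Its level was 126 CPM in NOD (467 UMIs, 115 to 138) and 80.3 CPM in CD1 (1546 UMIs, 76.3 to 84.4), a log2 ratio of 0.65 (0.49 to 0.80) that stayed under 2-fold. Macrophage-like barcodes held 72.6% of the placed *Il1b* UMIs in NOD and 90.6% in CD1. The highest level lay in the few neutrophil-like barcodes, at 6815 CPM in NOD (106 UMIs, 5579 to 8242) and 6587 CPM in CD1 (111 UMIs, 5419 to 7933). All 5 NOD neutrophil-like barcodes held it, with 6 to 53 UMIs each, as did all 4 in CD1, with 18 to 39 UMIs each. These 9 barcodes thus carried 16.5% of the placed *Il1b* UMIs in NOD and 6.50% in CD1, and *Il1b* itself was among the 10 leading genes of that class. Monocyte-like barcodes followed at 155 CPM in NOD (118 to 200.1) and 137 CPM in CD1 (91.1 to 198), which overlapped each other and, in NOD, the macrophage-like interval.

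The same opposite directions appeared in the share of macrophage-like barcodes with a UMI. Unthinned, *Il1a* was detected in 15.6% of NOD barcodes (12.9% to 18.5%, median depth 2866 UMIs) and 38.3% of CD1 barcodes (36.5% to 40.1%, median depth 6803 UMIs), against 0.114% of NOD B-like barcodes (median depth 5575 UMIs) and 0.681% of CD1 endothelial-like barcodes (median depth 6112 UMIs). *Il1b* was detected in 24.2% (21.0% to 27.6%) and 18.4% (17.0% to 19.9%). After thinning every barcode to 2000 UMIs, which left out 256 NOD and 762 CD1 barcodes, *Il1a* was in 10.5% of 418 NOD barcodes (7.75% to 13.9%) and 20.6% of 2141 CD1 barcodes (18.9% to 22.4%), and *Il1b* in 16.7% (13.3% to 20.7%) and 9.06% (7.88% to 10.4%). In the same thinned barcodes, *Il1a* was found in 8.57% of NOD barcodes with an *Il1b* UMI (6 of 70) and 10.9% of those without one, and in CD1 in 25.3% (49 of 194, 19.3% to 32.0%) and 20.1% (18.4% to 22.0%). The intervals overlapped in both libraries, and the difference between barcodes with and without *Il1b* was not tested. At under 3000 UMIs, *Il1a* stood at 20.3 CPM in NOD and 36.0 CPM in CD1, whereas at or above that depth it stood at 67.8 and 167 CPM. The depth limit of 3000 UMIs was chosen after the values were seen.

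**Figure D2:**
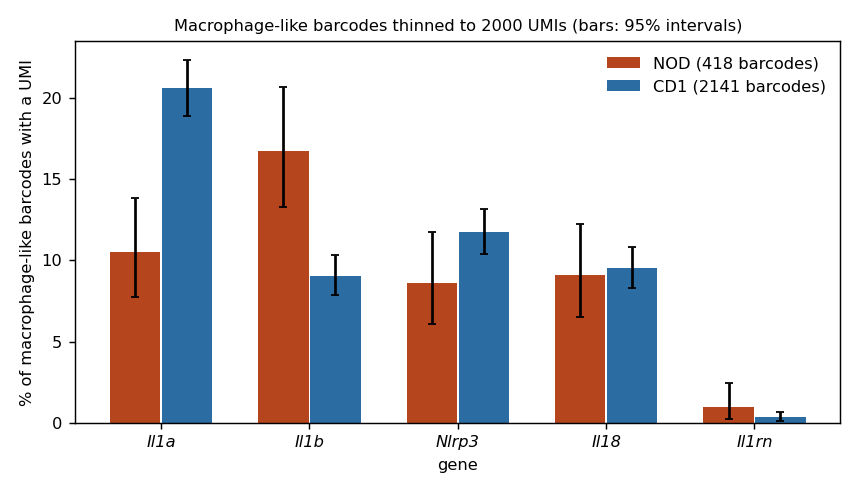
Percentage of macrophage-like barcodes with at least 1 UMI of each gene after thinning to 2000 UMIs, in NOD (418 barcodes) and CD1 (2141 barcodes), with exact 95% intervals as error bars. *Il1a* was in 10.5% of NOD and 20.6% of CD1 barcodes and *Il1b* in 16.7% and 9.06%, while the intervals for *Nlrp3*, *Il18* and *Il1rn* overlap.

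Transcripts of the antagonist *Il1rn* were few. In macrophage-like barcodes they reached 8.35 CPM in NOD (31 UMIs, 5.67 to 11.8) and 3.06 CPM in CD1 (59 UMIs, 2.33 to 3.95), a log2 ratio of 1.45 (0.77 to 2.10). At least 2 UMIs of monocyte markers were present in 8.01% of NOD and 2.79% of CD1 macrophage-like barcodes, and their part in the *Il1rn* ratio was not tested. Monocyte-like barcodes stood higher, at 136 CPM in NOD (51 UMIs, 101 to 179) and 44.1 CPM in CD1 (9 UMIs, 20.1 to 83.6), but 37 of the 51 NOD UMIs came from 1 of 34 barcodes. The neutrophil-like level was 321 CPM from 5 UMIs in NOD and 178 CPM from 3 UMIs in CD1. The order neutrophil-like, monocyte-like, macrophage-like was the same in both libraries, but the intervals of the neutrophil-like and monocyte-like classes overlapped in each.

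*Il18* was held by macrophage-like barcodes at similar levels, 67.8 CPM in NOD (252 UMIs, 59.7 to 76.8) and 58.5 CPM in CD1 (1126 UMIs, 55.1 to 62.0), and the log2 ratio of 0.21 (0.01 to 0.41) lay close to 0. Its UMIs were spread, with no NOD macrophage-like barcode above 5 UMIs. The NOD monocyte-like level of 64.0 CPM (41.0 to 95.3) overlapped that of the macrophage-like class. In NOD, T-like barcodes held 17.3% of the placed *Il18* UMIs, at 4.73 CPM (69 UMIs). Empty droplets held 6.53 CPM and NK or ILC1-like barcodes 0.235 CPM (1 UMI). Of the 69 UMIs, 45 lay in T-like barcodes with *Cd4* alone, at 7.40 CPM (5.40 to 9.90). The part of free RNA in these levels was not tested.

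*Il33*, the ligand of ST2, stood apart because macrophages did not carry it. Its UMIs lay in fibroblast-like barcodes, at 239.9 CPM in NOD (144 UMIs, 202 to 282) and 172 CPM in CD1 (23 UMIs, 109 to 259), with a log2 ratio of 0.48 (-0.16 to 1.18). It was found in 33 of 63 NOD and 10 of 19 CD1 fibroblast-like barcodes, 52.4% and 52.6%, at unequal median depths of 8269 and 1495 UMIs. After thinning to 500 UMIs the shares were 11.1% (4.59% to 21.6%) and 15.8% (3.38% to 39.6%), which overlapped. The other source was epithelial-like, at 136 CPM in NOD and 37.5 CPM in CD1, but 27 of the 30 NOD UMIs came from 1 barcode, and 22 of the 23 CD1 UMIs from barcodes with at least 2 of the basal or myoepithelial markers *Krt5*, *Krt14*, *Acta2* and *Myh11*. Endothelial cells carry *Il33* in many tissues, yet here 2 NOD UMIs and 3 CD1 UMIs were found in 1090 and 2935 endothelial-like barcodes, at or under the 3 UMIs taken as the limit of detection, and no fold is given. Because no class of at least 50 barcodes in both libraries held *Il33* above that limit, the strains could be compared only in the small fibroblast-like and epithelial-like classes.

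**Figure D3:**
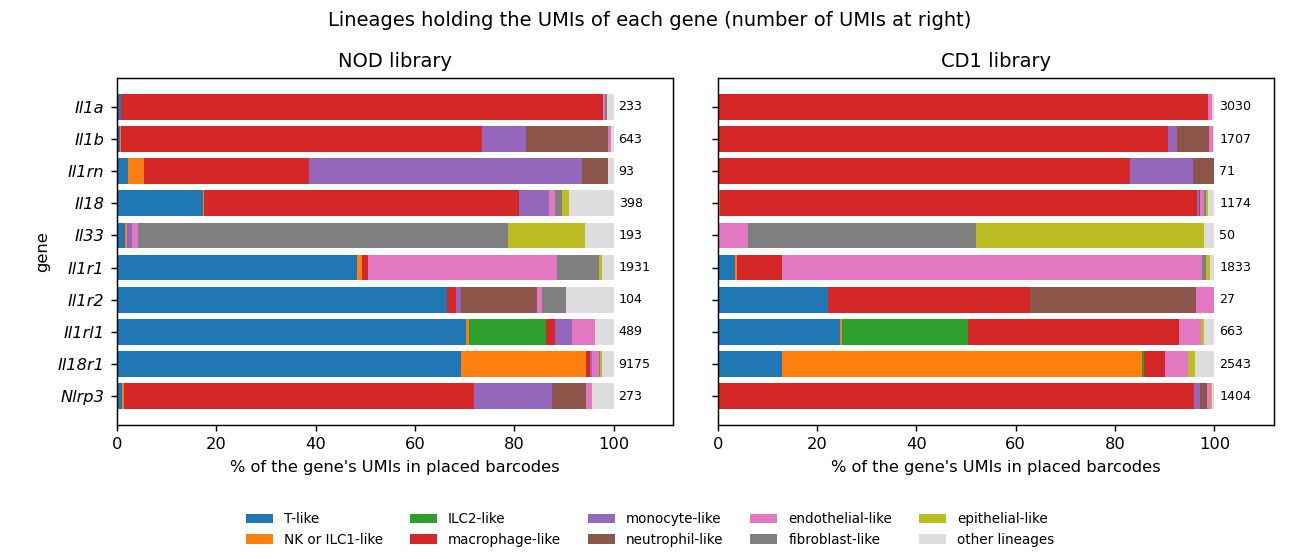
Percentage of each gene's UMIs in placed barcodes that fell in each lineage, for the NOD (left) and CD1 (right) libraries, with the number of UMIs at the right of each bar. Macrophage-like barcodes (red) hold 97.0% of *Il1a* in NOD and 98.7% in CD1, while *Il1r1* is split between T-like and endothelial-like barcodes in NOD and is 84.6% endothelial-like in CD1.

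The signalling receptor *Il1r1* was carried by endothelial cells, fibroblasts, mural cells and a minority of T cells. In endothelial-like barcodes it stood at 122 CPM in NOD (738 UMIs, 113 to 131) and 79.6 CPM in CD1 (1551 UMIs, 75.7 to 83.7), a log2 ratio of 0.62 (0.49 to 0.74), against 28.8 and 23.4 CPM in empty droplets. The share of endothelial-like barcodes with a UMI was 34.9% in NOD and 32.9% in CD1, and 4.40% and 3.61% after thinning to 500 UMIs, with overlapping intervals (3.26% to 5.80% and 2.97% to 4.35%). For comparison, the unthinned share in NOD B-like barcodes was 1.60%. Within the class, capillary barcodes stood at 118 CPM in NOD (109 to 128) and 79.4 CPM in CD1 (75.3 to 83.6), and arterial barcodes at 109 CPM (80.9 to 145) and 70.4 CPM (55.5 to 88.1). The 5 NOD and 9 CD1 venous barcodes reached 499 CPM (16 UMIs) and 579 CPM (30 UMIs), above the capillary intervals of both libraries. Fibroblast-like barcodes carried 272 CPM in NOD (163 UMIs, 231 to 317) and 97.4 CPM in CD1 (13 UMIs, 51.9 to 167), and mural-like barcodes 124 and 137 CPM, a pair that did not differ beyond their intervals.

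T-like barcodes held *Il1r1* at 64.0 CPM in NOD (934 UMIs, 59.9 to 68.2) and 66.4 CPM in CD1 (63 UMIs, 51.1 to 85.0), a log2 ratio of -0.05 (-0.42 to 0.34), and because T-like barcodes were far more numerous in NOD they held 48.4% of its placed UMIs there and 3.44% in CD1. Within the T-like class the UMIs were concentrated. A UMI was found in 163 NOD barcodes (7.65%, 6.56% to 8.86%) and 12 CD1 barcodes (10.8%, 5.71% to 18.1%), with up to 23 UMIs in a NOD barcode and 21 in a CD1 barcode. At least 50% of the T-like UMIs came from 39 barcodes in NOD and 3 in CD1. NOD barcodes with *Cd4* alone stood at 12.3 CPM (75 UMIs, 9.70 to 15.5), those with *Cd8a* or *Cd8b1* alone at 5.49 CPM (21 UMIs, 3.40 to 8.39), and the regulatory barcodes, with *Foxp3* and another regulatory marker, held 3 UMIs in 216 barcodes. All 3 levels lay below that of the class, and empty droplets held 28.8 CPM. Most of the 934 UMIs thus lay in T-like barcodes outside these 3 groups. Those barcodes had no regulatory pair and held either both *Cd4* and a *Cd8* gene or neither, and their level was not computed.

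*Il1r2*, the decoy receptor, was scarce. Neutrophil-like barcodes had the highest level, 1029 CPM in NOD (16 UMIs, 588 to 1670) and 534 CPM in CD1 (9 UMIs, 244 to 1014), with overlapping intervals. T-like barcodes held 69 UMIs in NOD (4.73 CPM, 3.68 to 5.98) and 6 in CD1 (6.33 CPM, 2.32 to 13.8), all 6 from 1 barcode. In NOD, 54 of the 69 lay in the 216 T-like barcodes with *Foxp3* and another regulatory marker, at 32.6 CPM (24.5 to 42.6) against 1.32 CPM in those with *Cd4* alone. Empty droplets held 3.47 CPM in NOD, and the part of free RNA in the level outside regulatory barcodes was not tested.

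*Il1rl1*, the receptor for interleukin-33, was in every ILC2-like barcode. ILC2 are innate lymphoid cells that make interleukin-5 and interleukin-13, and they carried *Il1rl1* at 662 CPM in NOD (75 UMIs in 14 barcodes, 520 to 829) and 623 CPM in CD1 (168 UMIs in 28 barcodes, 532 to 725), a log2 ratio of 0.09 (-0.33 to 0.49). *Il1rl1* was not among the markers that placed them. In T-like barcodes, by contrast, the level was 23.6 CPM in NOD (344 UMIs, 21.1 to 26.2) and 172 CPM in CD1 (163 UMIs, 147 to 200.4), 7.30-fold higher in CD1 (log2 ratio -2.87, -3.14 to -2.59). That ratio rested on few CD1 barcodes: 19 of the 111 held *Il1rl1*, and 17 of these also held at least 2 of *Gata3*, *Stab2*, *Thsd4* and *Dach2*. Among these genes *Stab2*, *Thsd4* and *Dach2* led the ILC2-like class, and *Gata3* encodes a factor known from ILC2 and type 2 helper T cells. Without barcodes with at least 2 of these genes, T-like *Il1rl1* stood at 19.2 CPM in NOD (274 UMIs) and 13.4 CPM in CD1 (10 UMIs), and the log2 ratio turned to 0.52 (-0.38 to 1.60). The set was chosen after the values were seen. Barcodes of all lineages with this set numbered 130 in NOD and 122 in CD1 and held 50.6% and 61.5% of all *Il1rl1* UMIs of their library. In NOD, T-like barcodes with *Foxp3* and another regulatory marker stood at 33.3 CPM (25.0 to 43.3) and those with *Cd4* alone at 31.9 CPM (27.6 to 36.7), so the 2 did not differ beyond counting error. Macrophage-like barcodes held 282 *Il1rl1* UMIs in CD1, 42.5% of the placed ones, in 206 barcodes and at 14.6 CPM. In that library, empty droplets held 20.2 CPM, endothelial-like barcodes 1.49 CPM and NK or ILC1-like barcodes 0.808 CPM. The NOD macrophage-like level was 2.42 CPM (9 UMIs), a log2 ratio NOD over CD1 of -2.60 (-3.74 to -1.65). The part of free RNA in these levels was not tested.

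*Il18r1*, the ligand-binding chain of the interleukin-18 receptor, was highest in lymphoid classes among those of at least 50 barcodes in each library. NK or ILC1-like barcodes carried 541 CPM in NOD (2299 UMIs, 519 to 564) and 496 CPM in CD1 (1843 UMIs, 474 to 520), a log2 ratio of 0.13 (0.04 to 0.21). T-like barcodes followed at 435 CPM in NOD (425 to 446) and 345 CPM in CD1 (308 to 384), with a log2 ratio NOD over CD1 of 0.34 (0.18 to 0.50), below the NK or ILC1-like interval in each library. The 8 Schwann-like barcodes of NOD stood at 553 CPM (18 UMIs, 327 to 873), with 13 of the UMIs in 1 barcode, and the 4 of CD1 held 1 UMI. A UMI was found in 75.5% of NOD and 78.2% of CD1 NK or ILC1-like barcodes and in 59.1% and 55.0% of T-like barcodes, against 2.40% of NOD B-like barcodes. Among T-like barcodes, those with *Cd8a* or *Cd8b1* alone were low, at 211 CPM in NOD (196 to 226) and 198 CPM in CD1 (146 to 263). Barcodes with *Cd4* alone stood above them in both libraries, at 473 CPM (456 to 491) and 478 CPM (400.2 to 567). In neither subset did the libraries differ beyond their intervals, and the part of subset make-up in the T-like ratio was not tested. In CD1, NK or ILC1-like barcodes with at least 2 of *Eomes*, *Gzma* and *Prf1* stood at 386 CPM (356 to 418) and the rest at 574 CPM (542.5 to 607), whereas in NOD the values were 528 CPM (502 to 556) and 568 CPM (529 to 609), with overlapping intervals. Endothelial-like and macrophage-like levels, 22.2 and 20.5 CPM in NOD and 5.96 and 5.66 CPM in CD1, were higher in NOD by log2 ratios of 1.90 and 1.85. The empty droplets held 178 CPM in NOD and 55.5 CPM in CD1, and NOD B-like barcodes 7.25 CPM. At least 50% of the NOD UMIs of each class came from 6 endothelial-like and 4 macrophage-like barcodes. The part of free RNA in these levels was not tested.

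**Figure D4:**
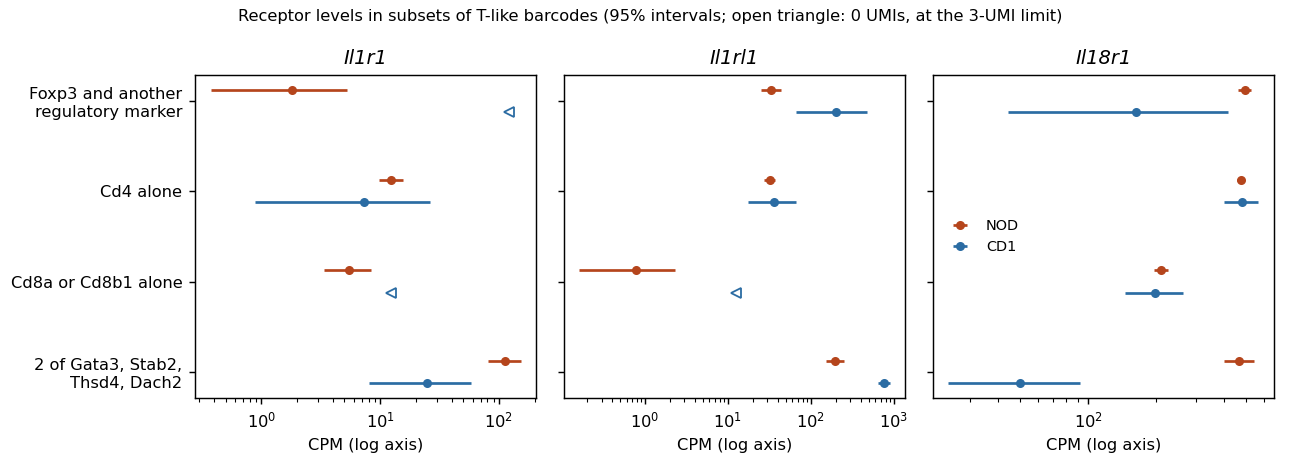
Levels in CPM (log axis) of *Il1r1*, *Il1rl1* and *Il18r1* in subsets of T-like barcodes of NOD and CD1, with exact 95% intervals; an open triangle stands for 0 UMIs and is drawn at the level of 3 UMIs. *Il18r1* is at 473 CPM in NOD and 478 CPM in CD1 with *Cd4* alone and lower with *Cd8a* or *Cd8b1* alone, while *Il1rl1* is at its highest with at least 2 of *Gata3*, *Stab2*, *Thsd4* and *Dach2*.

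*Nlrp3* followed the myeloid cytokines. Its level in macrophage-like barcodes was 51.7 CPM in NOD (192 UMIs, 44.6 to 59.5) and 69.8 CPM in CD1 (1345 UMIs, 66.2 to 73.7), a log2 ratio of -0.43 (-0.66 to -0.21). Monocyte-like barcodes carried 115 CPM in NOD (83.0 to 155) and 88.1 CPM in CD1 (52.2 to 139), and neutrophil-like barcodes 1221 CPM (19 UMIs, 735 to 1907) and 1068 CPM (18 UMIs, 633 to 1688), above the monocyte-like interval in both libraries. After thinning to 2000 UMIs, *Nlrp3* was in 17.1% of NOD macrophage-like barcodes with an *Il1b* UMI (12 of 70, 9.18% to 28.0%) and 6.90% of those without (4.47% to 10.1%), while in CD1 the shares were 13.4% (8.95% to 19.0%) and 11.6% (10.2% to 13.1%). The intervals overlapped in both libraries, only narrowly in NOD. Such an overlap does not show that the shares were equal, and their difference was not tested.

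A total of 9 members could be compared in a class of at least 50 barcodes in each library. In macrophage-like barcodes 8 members had at least 20 UMIs, and 4 of them were past 2-fold, *Il1rn* and *Il18r1* higher in NOD and *Il1a* and *Il1rl1* lower, against 12.7% of all 14375 genes. In T-like barcodes 2 of 5 members were past it, *Il18* higher and *Il1rl1* lower in NOD, against 16.0% of 13247 genes, but *Il18* had 2 CD1 UMIs there and an interval that includes 0 (log2 ratio 1.16, -0.74 to 4.24). In endothelial-like barcodes 3 of 4 were past it, *Il1rl1* and *Il18r1* higher in NOD and *Il1a* lower, against 11.9% of 14281 genes, but *Il1a* had 1 NOD UMI there (log2 ratio -2.77, -8.14 to -0.14). Both values lie under the limit of 3 UMIs and are not taken as differences. No member of 2 was past it in NK or ILC1-like barcodes, where 9.93% of 11601 genes were. Of these 9 pairs of gene and class, 6 lay at or below the level of the empty droplets in both libraries: *Il18r1* in macrophage-like and endothelial-like barcodes, *Il1rl1* in macrophage-like and endothelial-like barcodes, *Il18* in T-like barcodes and *Il1a* in endothelial-like barcodes. This comparison cannot separate transcripts of a class from free RNA, because free RNA is only a part of a barcode's UMIs. CD1 endothelial-like *Il1a*, for one, stood at 1.13 CPM against 62.9 CPM in empty droplets.

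**Figure D5:**
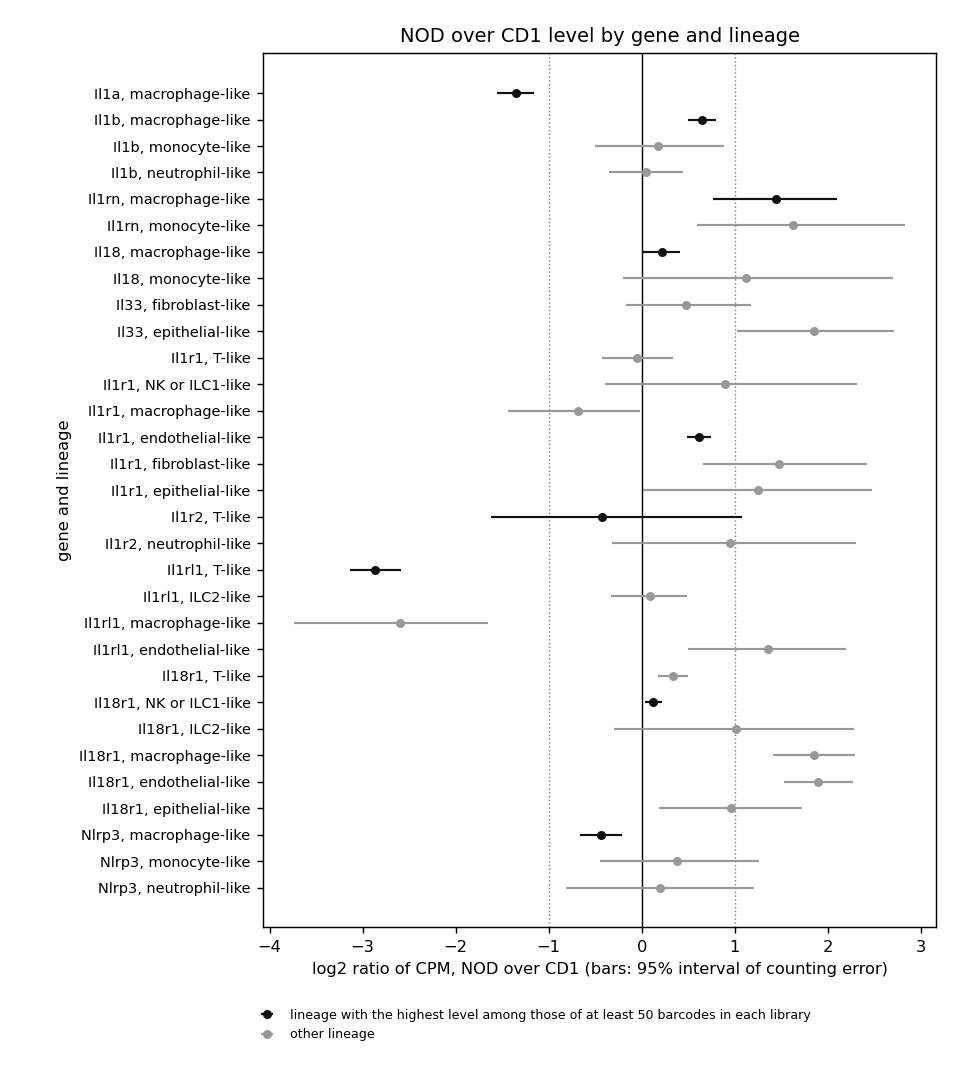
Log2 ratio of CPM, NOD over CD1, for each gene and lineage with at least 20 UMIs in both libraries together and more than 3 in each, with 95% intervals of counting error. Black points mark the lineage with the highest level of the gene among classes of at least 50 barcodes in each library, and dotted lines mark 2-fold. *Il1a* sits at -1.35 and *Il1b* at 0.65 in macrophage-like barcodes.

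Other genes of the pathway were read from lists. Among the remaining ligands and antagonists, *Il18bp*, which binds and neutralises interleukin-18, was 15.3 CPM in NOD and 2.96 CPM in CD1 macrophage-like barcodes (57 UMIs in each, log2 ratio 2.37, 1.82 to 2.93), and it was the only gene of its 6-gene list with enough UMIs to be compared there. The few *Il36g* UMIs included 6 in NOD and 4 in CD1 neutrophil-like barcodes. Of the other receptors, *Il18rap*, the accessory chain of the interleukin-18 receptor, stood in NK or ILC1-like barcodes at 416 CPM in NOD and 332 CPM in CD1 (log2 ratio 0.32, 0.22 to 0.43). *Il1rl2*, the receptor for interleukin-36, was lower in NOD macrophage-like barcodes, 46.3 against 81.3 CPM (log2 ratio -0.81, -1.05 to -0.58). All 4 genes of that list could be compared in macrophage-like barcodes, with a median of 0.55, and the only one past 2-fold was *Il18rap*, at 7.81 CPM in NOD and 2.75 CPM in CD1 (29 and 53 UMIs, 95% interval of the log2 ratio 0.80 to 2.18), against 12.7% of all genes. The part of free RNA in these *Il18rap* levels was not tested. *Il1rap*, the chain shared by the interleukin-1, interleukin-33 and interleukin-36 receptors, was higher in NOD endothelial-like barcodes, 29.6 against 16.2 CPM (0.87, 0.60 to 1.14), as *Il1r1* was. *Sigirr*, an inhibitory receptor, stood there at 34.1 and 37.3 CPM (-0.13, -0.36 to 0.09).

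Of the 11 inflammasome genes, 10 could be compared in macrophage-like barcodes and none was past 2-fold, with a median log2 ratio of 0.10 against 0.05 over all genes. With 12.7% of all genes past 2-fold in that class, a count of 0 in lists of this size is near the background. *Txnip* stood at 246.1 and 246.3 CPM, *Aim2* at 246.1 and 264 CPM, *Nek7* at 218 and 197 CPM, and *Pycard*, the adaptor that links the sensor to caspase-1, at 153 and 126 CPM. *Casp1* itself was 77.0 CPM in NOD and 62.3 CPM in CD1 (log2 ratio 0.31, 0.12 to 0.49). None of the 8 genes of receptor signalling was past 2-fold there (median -0.11, background 12.7%), with *Myd88* at 32.8 and 20.4 CPM (0.69, 0.39 to 0.99). Of 7 response genes 5 could be compared in macrophage-like barcodes and none was past it (median -0.21, background 12.7%), and *Cxcl2*, a neutrophil chemokine, stood at 56.3 and 92.7 CPM (-0.72, -0.94 to -0.51). In endothelial-like barcodes 6 response genes could be compared and 3 were past 2-fold, against 11.9% of all genes, each on few UMIs. *Cxcl1* was higher in NOD at 18 against 20 UMIs (log2 ratio 1.54, 0.53 to 2.53), *Il6* at 9 against 12 UMIs had an interval that includes 0 (1.27, -0.15 to 2.64), and *Cxcl2*, with 2 NOD UMIs, lay under the limit of 3 UMIs. Immediate early genes, which tissue dissociation can raise, went both ways in macrophage-like barcodes. There *Fos* stood at 379 and 275 CPM (0.46) and *Junb* at 235 and 374 CPM (-0.67), with a median of -0.14 over 8 genes. The 2 of 8 past 2-fold, against 12.7% of all genes, were the heat shock genes *Hspa1a*, at 80.5 and 30.9 CPM, and *Hspa1b*, at 41.5 and 13.8 CPM, named after their values were seen. Their part in the cytokine values was not tested.

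The genes most like each member were sought over the 12 classes of at least 50 barcodes, by Pearson's r of log2(CPM + 10). The closest was *Csf3r* for *Il1b* (r = 0.999), *Siglec1* for *Il1rn* (0.994), *Clec5a* for *Il18* (0.982) and *Cd300ld* for *Nlrp3* (0.997). *Il33* was closest to *Adamtsl3* (0.999), *Il1r1* to *Prickle1* (0.937), and *Il18r1* to *Gfod1* (0.988). These classes share libraries and differ in depth, and a gene confined to a single lineage scores high with any other such gene.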

How the data were processed

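Single-cell RNA was counted in 1 NOD and 1 CD1 library. The deposited values are raw UMI counts per gene and barcode that the authors made with Cell Ranger 8.0.0, over all barcodes and with no cell filter. Seurat 5.0.1 and R 4.3.1 and the build GRCm39 come from the submitters' processing notes. The labels and the paper differ in the number of mice pooled for a strain and in the dissociation enzymes.

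Barcodes with at least 500 UMIs and 300 genes were kept (6500 NOD, 7014 CD1). For each of 15 lineages the mean over its markers of log(1 + UMIs per 10000) was divided by the mean of the 25 highest barcodes, and only lineages with at least 2 detected markers competed. A barcode was placed where the leading score was at least 1.5 times the next. Doublets were left out only as far as this rule sets barcodes with markers of several lineages aside (536 NOD and 285 CD1 mixed). The 1 barcode placed as mast cell had no raised marker and was not named. UMIs were summed by class, divided by the class total as CPM, and given exact Poisson intervals. The interval of a log2 ratio was the conditional binomial one and that of a share Clopper-Pearson, all at 95% and for counting error only. The libraries held 43439635 and 49420810 UMIs in kept barcodes, and 3 UMIs is the limit that a count of 0 allows. Genes with at least 20 UMIs in a class were compared, by point estimate past 2-fold. Members were all 10 listed genes, pathway genes up to 4 by list with the most UMIs, with others named where a result turned on them, and the nearest genes those with the highest r among genes with at least 100 UMIs. Members, lists and markers were chosen with earlier results of these data known. Alternatives changed the filters, the doublet step (Scrublet), the placing, the scaling, the weight of each barcode and the free RNA. Python 3.11.15, numpy 2.4.6, scipy 1.17.1 and matplotlib 3.10.9 were used, and the intervals were tested on simulated data.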

Additional observations from a re-analysis of the deposited data

Results flagged for a closer look

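Barcodes that no lineage comparison used, the 363 NOD and 216 CD1 unplaced and the 536 NOD and 285 CD1 mixed barcodes, held some members above the level of the empty droplets of their library, with intervals that did not overlap. Unplaced barcodes carried *Il1rl1* at 192 CPM in NOD (162 to 225) and 289 CPM in CD1 (240 to 347), against 10.4 and 20.2 CPM in empty droplets. Most of these UMIs, 143 of 149 in NOD and 111 of 118 in CD1, lay in the 41 NOD and 26 CD1 unplaced barcodes with at least 2 of *Gata3*, *Stab2*, *Thsd4* and *Dach2*. *Il1r1* stood at 217 CPM in NOD unplaced barcodes (169 UMIs, 186 to 253), against 28.8 CPM in empty droplets. *Il18r1* stood there at 469 CPM in NOD (422 to 520) and 152 CPM in CD1 (117 to 195), against 178 and 55.5 CPM. Unplaced barcodes had medians of 1524 UMIs in NOD and 1115 in CD1, and median mitochondrial shares of 18.8% and 15.6%.

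In mixed barcodes *Il18r1* stood at 252 CPM in NOD and 116 CPM in CD1, and *Il1rn* at 6.61 CPM in NOD and 6.22 CPM in CD1, against 1.43 and 1.78 CPM in empty droplets. Of the 40 NOD *Il1rn* UMIs in mixed barcodes, 27 came from 1 barcode. CD1 mixed barcodes also held *Il1r1* at 41.0 CPM and *Il1rl1* at 33.1 CPM. The 4-gene set was chosen after the values were seen.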

How the results depend on the processing

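Of 81 recomputed log2 ratios of the 9 members that could be compared, 78 stayed within the interval of the value as reported, and 79 kept its sign. Taking the mean of each barcode's own CPM in place of summed UMIs moved *Il18* in macrophage-like barcodes from 0.21 to -0.053 and *Nlrp3* there from -0.43 to -0.69. Leaving out T-like barcodes with at least 2 of *Gata3*, *Stab2*, *Thsd4* and *Dach2* turned *Il1rl1* from -2.87 to 0.52, on 10 CD1 UMIs. Over all its alternatives *Il1a* in macrophage-like barcodes ranged from -1.52 to -1.30 and *Il1b* from 0.59 to 0.75, and *Il1rn* from 1.17 to 1.64. Median-of-ratios scaling moved ratios by at most 0.09. The alternatives with at least 3000 UMIs, without the barcode with the most UMIs of the member, and without the 4-gene set were chosen after seeing the data. Without that barcode *Il1r2* had no CD1 T-like UMI left and no ratio.

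In NOD, 9 members, and in CD1, 7 had over 50% of their placed UMIs in 1 lineage, and these counts ranged from 9 to 10 and from 7 to 9 over the alternatives. Of 80 leading lineages recomputed, 1 changed, that of *Il33* in CD1 from fibroblast-like to epithelial-like with at least 1000 UMIs and 500 genes. No paired analysis was possible because each strain had 1 library. Classes of under 50 barcodes, the neutrophil-like, monocyte-like, ILC2-like, fibroblast-like (CD1) and epithelial-like (NOD) among them, rest on few UMIs, and 1 barcode can set their levels.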

Other observations

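The gene nearest to *Il1a* over the 12 classes was *A830008E24Rik* (r = 0.998), that nearest to *Il1r2* was *Prrt2* (0.969), and that nearest to *Il1rl1* was *Fbxl21* (0.954). Dividing macrophage-like barcodes, those with at least 2 of *Mki67*, *Top2a*, *Cdk1* and *Ccnb1*, carried *Il1a* at 103 CPM in NOD (28 UMIs in 23 barcodes, 68.4 to 149) and 169 CPM in CD1 (226 UMIs in 96 barcodes, 148 to 193), against 57.5 and 154 CPM in the others. They carried *Il1b* at 66.2 CPM in NOD (39.2 to 105) and 93.0 CPM in CD1 (77.3 to 111), against 130.4 and 79.3 CPM in the others. In dividing barcodes *Il1b* was thus not higher in NOD, although 18 NOD UMIs allow only a wide interval, and the difference between dividing and other barcodes was not tested.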
